A study of Arabidopsis thaliana with 12 samples.

Results

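The early genes of tetrapyrrole synthesis encode the enzymes that turn glutamate, carried on its tRNA, into the first ring-shaped tetrapyrroles, together with the inhibitor of the enzyme that opens the route. They were chosen by locus, by a rule that uses no measured value but was made with earlier results of these data known: HEMA1 (AT1G58290), HEMA2 (AT1G09940), FLU (AT3G14110), GSA1 (AT5G63570), GSA2 (AT3G48730), HEMB1 (AT1G69740), HEMC (AT5G08280), HEME1 (AT3G14930) and HEME2 (AT2G40490). These are 9 of the 25665 Arabidopsis thaliana loci with a probe on the array. Each of the 9 had 1 probe, and all 9 passed the filter on dim signals with 20640 loci in all, being well above background on all 12 arrays. RNA of whole seedlings was hybridised to one-colour Agilent arrays, 4 arrays for each of 3 genotypes. The first genotype was GLK1-SRDX, in which the constitutive 35S promoter drives GLK1 joined to the SRDX repression domain. The second was the double mutant glk1 glk2, and the third was the wild type. Seedlings of all 3 genotypes were 2 weeks old and had grown on MS agar with 1% sucrose at 23 °C in 16 h light and 8 h dark. The labels give no line number for GLK1-SRDX and do not state whether replicates came from separate cultures. The p-values therefore rest on a spread among samples that may be technical in part.

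Plants make aminolevulinate, the precursor of all tetrapyrroles, in the plastid. Glutamyl-tRNA reductase and glutamate semialdehyde aminomutase form it, and later enzymes turn it into uroporphyrinogen and then coproporphyrinogen. The sirohaem route departs from uroporphyrinogen, and coproporphyrinogen leads on through further steps to haem and chlorophyll. In green tissue glutamyl-tRNA reductase is the main point of control: HEMA1 is known as the light-induced copy that serves chlorophyll, HEMA2 as a more evenly expressed copy that is also active in roots, and FLU as the protein that shuts the reductase down in the dark. GLK1 and GLK2 are transcription factors that turn on nuclear genes for chloroplast proteins, and a repression domain such as SRDX is used to turn an activator into a dominant repressor. The comparisons address how the early genes stood when the GLK genes were lost and when the chimeric repressor was present.

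The targeted genes followed the mutant's label. GLK2 lay at 0.0225 to 0.0372 multiples of the array's 75th percentile of signal in glk1 glk2, against 3.69 to 5.98 in wild type (log2 change -7.51 ± 0.19 SE, limma adjusted p = 5.12e-09). GLK1 lay at 0.142 to 0.417 in glk1 glk2, against 0.921 to 1.44 in wild type (log2 change -2.23 ± 0.28, adjusted p = 0.00289). In GLK1-SRDX, GLK1 lay at 1.72 to 2.16 and did not pass the test against wild type (log2 difference 0.84 ± 0.28, adjusted p = 0.0662). GLK2 lay at 6.77 to 8.35 there and did not pass either (log2 difference 0.62 ± 0.19, adjusted p = 0.0538). For both genes every GLK1-SRDX array was above every wild type array, where 28% of loci did not overlap in either direction. Whether the GLK1 probe reads the transgene was not tested. All 4 GLK1-SRDX arrays and no others were on one slide, so the effects of slide and of that genotype cannot be told apart, whereas 2 further slides each held glk1 glk2 and wild type. The 75th percentile ran from 1522 to 2480 intensity units over the arrays, between 64.1% and 68.7% of an array's probes stood well above background, and no spot was saturated. Of markers of seedling tissue, 19 of 20 for root and all 6 for green shoot were measured, and 2 of 3 flower markers and 2 of 3 seed storage markers were too dim to test.

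Levels are given throughout as multiples of the array's own 75th percentile, array by array in the order of the replicate numbers. They compare arrays for 1 gene and never 1 gene with another. In 6 of the 9 genes the mean level was highest in GLK1-SRDX, lower in wild type and lowest in glk1 glk2. FLU and GSA1 ran GLK1-SRDX, glk1 glk2, wild type from high to low, and HEMA2 ran glk1 glk2, GLK1-SRDX, wild type. Neighbours in these orders passed the test of their difference only for HEMA1, between GLK1-SRDX and wild type, and for HEME1, between glk1 glk2 and wild type. Between the highest and the lowest of the 12 arrays, HEMA2 spanned 1.30-fold, the narrowest range of the 9, and HEME1 spanned 2.84-fold, the widest.

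**Figure D1:**
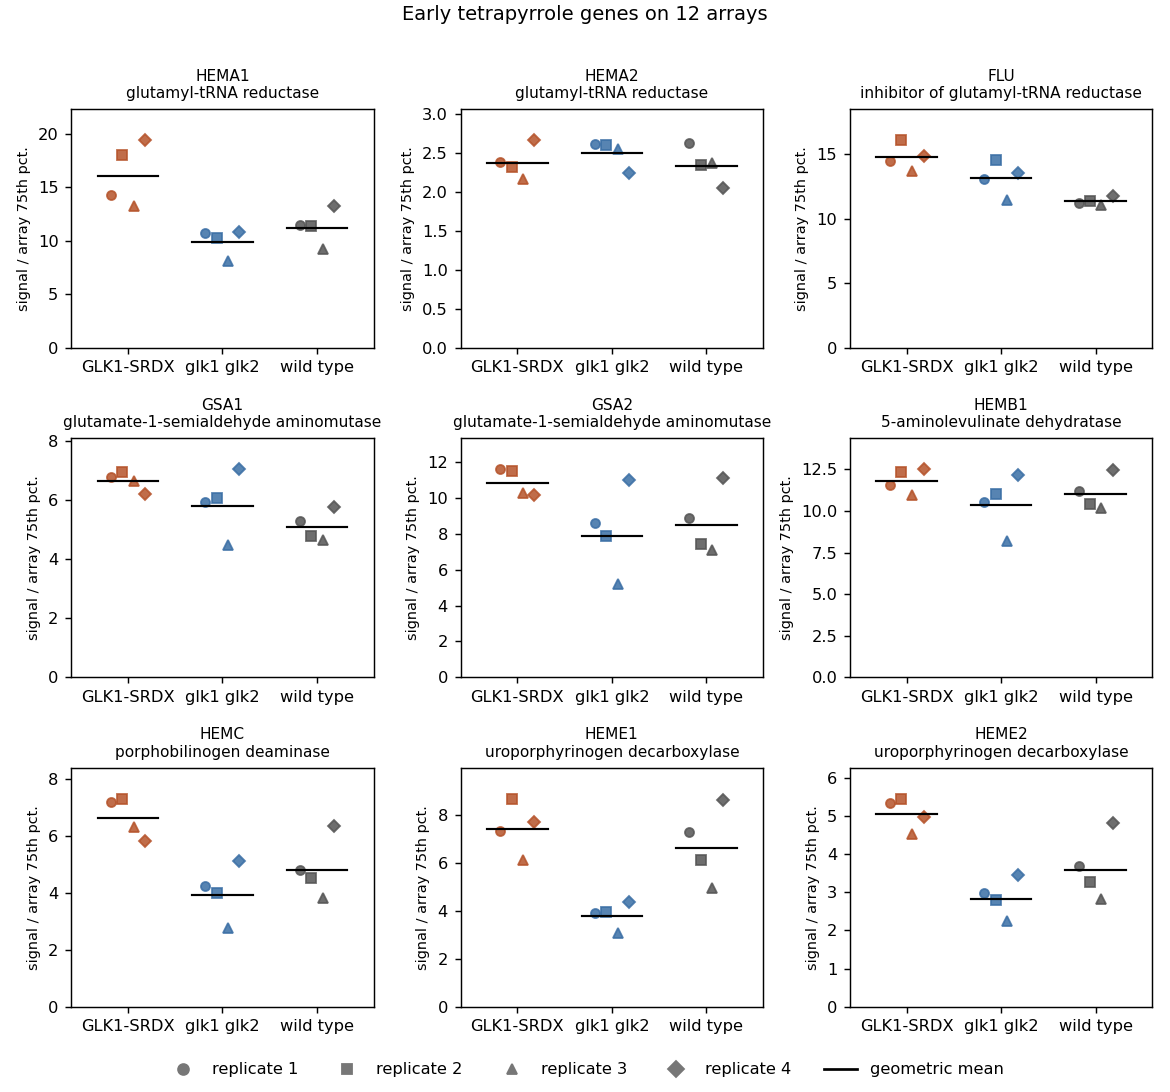
Level of each of the 9 genes on every array, as a multiple of the array's 75th percentile on a linear axis from 0, with GLK1-SRDX, glk1 glk2 and wild type from left to right, a symbol for each replicate and a bar at the geometric mean of 4 arrays. HEME1 shows 4 glk1 glk2 arrays below all others, FLU and GSA1 show 4 GLK1-SRDX arrays above all wild type arrays, and HEMA2 shows mixed groups.

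HEMA1, the light-induced glutamyl-tRNA reductase gene, read 14.3, 18.0, 13.2 and 19.4 in GLK1-SRDX, 10.7, 10.3, 8.12 and 10.8 in glk1 glk2, and 11.5, 11.4, 9.26 and 13.3 in wild type. The 4 GLK1-SRDX arrays lay above all glk1 glk2 arrays, but the lowest of them touched the range of wild type. HEMA1 rose in GLK1-SRDX, 1.43-fold over wild type (log2 change 0.51 ± 0.15 SE, 95% interval 0.17 to 0.85, limma adjusted p = 0.0489) and 1.62-fold over glk1 glk2 (0.69 ± 0.15, adjusted p = 0.0187). Between glk1 glk2 and wild type the log2 difference was -0.18 ± 0.15 (interval -0.52 to 0.16, adjusted p = 0.548). It was negative in 4 of 4 same-numbered pairs (-0.29 to -0.10, adjusted p = 0.119 with the replicate block), and it turned to 0.01 when arrays were scaled to their median, which put the median of all loci at 0.20. Pairing by replicate number, here and for the genes below, was inferred from these same data and is not stated in the labels.

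The call of HEMA1 against wild type lay just inside the threshold and passed under 10 of 23 alternative settings, with a log2 change of 0.42 to 0.70 in all of them. It was lost on leaving out GLK1-SRDX replicate 1, 2 or 4 (adjusted p = 0.0706, 0.134 and 0.119), replicate 1 or 2 of glk1 glk2 (0.0667 and 0.0619), or replicate 1, 2 or 3 of wild type (0.0987, 0.0978 and 0.117). It was also lost with normexp (0.162), no filter (0.0665), a 2-group fit (0.0514), the series table (0.0994) and on dropping both arrays numbered 3 of glk1 glk2 and wild type (0.067). Against glk1 glk2 it passed under 20 of 23 and was lost without GLK1-SRDX replicate 2 (0.0595), with median scaling (0.0706) and with normexp (0.134). HEMA1 spots had been rescaled by the scanner software from a low-gain scan, on 4 of 4 arrays in GLK1-SRDX, 1 of 4 in glk1 glk2 and 2 of 4 in wild type, and the part of this in the result was not tested.

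HEMA2, the more evenly expressed reductase gene, read 2.17 to 2.67 in GLK1-SRDX, 2.24 to 2.62 in glk1 glk2 and 2.05 to 2.63 in wild type. The 3 ranges lay over each other. The log2 difference was 0.02 ± 0.10 between GLK1-SRDX and wild type (adjusted p = 0.900), 0.10 ± 0.10 between glk1 glk2 and wild type (interval -0.12 to 0.31, adjusted p = 0.616) and -0.07 ± 0.10 between GLK1-SRDX and glk1 glk2 (adjusted p = 0.709). Each of these signs turned under at least one setting, including the deposited series table for glk1 glk2 against wild type (-0.09) and for GLK1-SRDX against glk1 glk2 (0.22), and quantile normalization for GLK1-SRDX against wild type (-0.01).

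FLU, the inhibitor of glutamyl-tRNA reductase, read 14.4, 16.1, 13.7 and 14.9 in GLK1-SRDX, 13.1, 14.6, 11.5 and 13.5 in glk1 glk2, and 11.2, 11.4, 11.0 and 11.8 in wild type. Every GLK1-SRDX array was above every wild type array, while GLK1-SRDX and glk1 glk2 overlapped. FLU rose 1.30-fold in GLK1-SRDX over wild type (log2 change 0.38 ± 0.08, interval 0.20 to 0.56, adjusted p = 0.0143), a call kept in 21 of 23 settings and lost without GLK1-SRDX replicate 2 (0.0501) and in the series table (0.0994). In glk1 glk2 the log2 difference from wild type was 0.21 ± 0.08 (adjusted p = 0.194), positive in 4 of 4 same-numbered pairs, and it passed once glk1 glk2 replicate 3 was left out (0.28, adjusted p = 0.0360). Between GLK1-SRDX and glk1 glk2 the log2 difference was 0.17 (adjusted p = 0.243). All 12 FLU spots had been rescaled from the low-gain scan.

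GSA1 and GSA2 encode glutamate semialdehyde aminomutase, the enzyme that completes aminolevulinate. GSA1 read 6.77, 6.96, 6.63 and 6.19 in GLK1-SRDX, 5.94, 6.05, 4.47 and 7.03 in glk1 glk2, and 5.28, 4.78, 4.66 and 5.76 in wild type. The GLK1-SRDX arrays all lay above the wild type arrays, but the difference did not pass after adjustment over all loci (log2 difference 0.38 ± 0.13, interval 0.10 to 0.66, adjusted p = 0.0717). It passed in 5 of 23 settings. These included leaving out glk1 glk2 replicate 3 (adjusted p = 0.0161) or 4 (0.0422), arrays that enter this comparison only through the estimate of the spread. The others were a 2-group fit (0.0197), median scaling (0.0480) and dropping both arrays numbered 3 of glk1 glk2 and wild type (0.0405). In glk1 glk2 the log2 difference of GSA1 from wild type was 0.18 ± 0.13 (adjusted p = 0.453), with a sign that turned in the series table.

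GSA2 ran from 10.2 to 11.6 in GLK1-SRDX, 5.20 to 11.0 in glk1 glk2 and 7.10 to 11.1 in wild type. Its glk1 glk2 arrays spread widely and its groups overlapped in every comparison. The log2 difference was 0.35 ± 0.21 for GLK1-SRDX against wild type (adjusted p = 0.281), 0.46 ± 0.21 against glk1 glk2 (adjusted p = 0.207), and -0.11 ± 0.21 for glk1 glk2 against wild type (interval -0.57 to 0.36, adjusted p = 0.822), a sign that turned under 4 of 23 settings, median scaling among them.

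HEMB1 encodes aminolevulinate dehydratase, which joins aminolevulinate into porphobilinogen. It ran from 11.0 to 12.5 in GLK1-SRDX, 8.17 to 12.2 in glk1 glk2 and 10.2 to 12.4 in wild type, and no comparison separated the groups. The log2 difference was 0.10 ± 0.12 for GLK1-SRDX against wild type (adjusted p = 0.601), 0.19 ± 0.12 against glk1 glk2 (adjusted p = 0.376), and -0.09 ± 0.12 for glk1 glk2 against wild type (interval -0.35 to 0.18, adjusted p = 0.730). The last of these turned positive with median scaling (0.11) and without glk1 glk2 replicate 3 (0.03). Low-gain spots were rescaled on 4 arrays of GLK1-SRDX, 1 of glk1 glk2 and 2 of wild type for HEMB1, and on 3, 1 and 2 for GSA2.

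HEMC encodes porphobilinogen deaminase, which links porphobilinogen units into a linear tetrapyrrole. It read 7.17, 7.29, 6.32 and 5.81 in GLK1-SRDX, 4.25, 3.99, 2.76 and 5.10 in glk1 glk2, and 4.80, 4.52, 3.80 and 6.35 in wild type. The GLK1-SRDX arrays lay above all glk1 glk2 arrays and overlapped wild type only through wild type replicate 4. HEMC rose 1.69-fold in GLK1-SRDX over glk1 glk2 (log2 change 0.75 ± 0.20, interval 0.32 to 1.18, adjusted p = 0.0365).

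This HEMC call passed under 10 of 23 settings. It was lost with median scaling (0.109), normexp (0.0572), no filter (0.0502), a 2-group fit (0.0574) and the replicate block (0.0981). Leaving out any single GLK1-SRDX array also lost it (0.101, 0.0962, 0.0798 and 0.0503 in replicate order). So did leaving out replicate 1 or 2 of glk1 glk2 (0.0714 and 0.0721) or of wild type (0.0552 and 0.0526). Against wild type, the HEMC log2 difference was 0.47 ± 0.20 in GLK1-SRDX (interval 0.04 to 0.90, adjusted p = 0.132) and -0.28 ± 0.20 in glk1 glk2 (interval -0.71 to 0.15, adjusted p = 0.449). The glk1 glk2 difference was negative in 4 of 4 same-numbered pairs (-0.46 to -0.18, adjusted p = 0.0818 with the replicate block).

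HEME1 and HEME2 encode uroporphyrinogen decarboxylase, whose product feeds haem and chlorophyll. HEME1 read 7.32, 8.68, 6.14 and 7.70 in GLK1-SRDX, 3.91, 3.96, 3.06 and 4.37 in glk1 glk2, and 7.30, 6.14, 4.97 and 8.61 in wild type. All 4 glk1 glk2 arrays lay below every array of the other genotypes, and GLK1-SRDX and wild type were mixed. HEME1 fell in glk1 glk2, 1.75-fold below wild type (log2 change -0.80 ± 0.18, interval -1.19 to -0.42, adjusted p = 0.0355), and rose 1.95-fold in GLK1-SRDX over glk1 glk2 (0.97 ± 0.18, adjusted p = 0.00746). GLK1-SRDX and wild type differed by a log2 of 0.16 ± 0.18 (interval -0.23 to 0.55, adjusted p = 0.574).

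The HEME1 difference between glk1 glk2 and wild type kept its sign in all 23 settings, at -0.99 to -0.61, and passed in 9. Many of the settings, among them filters, 2-group fits and blocks, could not move the difference itself. The same-numbered pairs gave -0.90, -0.63, -0.70 and -0.98, the 2 shared slides gave -0.77 and -0.84, and the adjusted p with the replicate block was 0.0261. The call was lost on leaving out replicate 1 or 2 of glk1 glk2 (0.0832 and 0.0774), replicate 1, 2 or 4 of wild type (0.112, 0.0789 and 0.0819), or GLK1-SRDX replicate 1, 2 or 4 (0.0549, 0.0512 and 0.0554). It was also lost with the slide as a fixed block (0.164), median scaling (0.103), normexp (0.147), no filter (0.0517), a 2-group fit (0.122) and the series table (0.0872). The HEME1 call of GLK1-SRDX against glk1 glk2 was lost with normexp alone (0.0723).

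HEME2, the other decarboxylase gene, read 5.34, 5.45, 4.54 and 4.97 in GLK1-SRDX, 2.97, 2.79, 2.25 and 3.44 in glk1 glk2, and 3.69, 3.27, 2.82 and 4.81 in wild type. The GLK1-SRDX arrays stood above all glk1 glk2 arrays. HEME2 rose 1.79-fold in GLK1-SRDX over glk1 glk2 (log2 change 0.84 ± 0.17, adjusted p = 0.0117), which passed in 23 of 23 settings. No setting could tell slide from genotype here, since the GLK1-SRDX arrays had a slide to themselves. Against wild type the log2 difference was 0.50 ± 0.17 in GLK1-SRDX (interval 0.13 to 0.87, adjusted p = 0.0704) and -0.34 ± 0.17 in glk1 glk2 (interval -0.71 to 0.03, adjusted p = 0.296). The GLK1-SRDX difference from wild type passed with median scaling (0.69, adjusted p = 0.0403) and without wild type replicate 4 (0.64, adjusted p = 0.0232) or glk1 glk2 replicate 3 (adjusted p = 0.0417). That of glk1 glk2 with wild type was negative in 4 of 4 same-numbered pairs (adjusted p = 0.0506 with the replicate block).

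Counted over the 9 genes, GLK1-SRDX against wild type gave 2 higher (HEMA1 and FLU) and none lower by limma, where 7.89% of all tested loci were called higher, 6.4% lower and 14.3% in either direction. At an unadjusted p under 0.05, 5 of 9 were higher and none lower, where 16% of loci were higher and 14.7% lower. The median log2 difference of the 9 was 0.38, with 9 of 9 above 0, against 0.01 over all loci. In glk1 glk2 against wild type, none was higher and 1 was lower (HEME1), where 2.19% of loci were called higher, 1.1% lower and 3.3% in either direction (681 loci, and 1420 with the replicate block), and the median was -0.11 with 3 of 9 above 0. At an unadjusted p under 0.05, 1 of 9 was higher (FLU) and 1 lower (HEME1), where 11.2% of loci were higher and 8.44% lower. GLK1-SRDX against glk1 glk2 gave 4 higher (HEMA1, HEMC, HEME1 and HEME2) and none lower, where 5.55% of loci were called higher, 3.72% lower and 9.27% in either direction, and the median was 0.46 with 8 of 9 above 0. At an unadjusted p under 0.05 the same 4 were higher and none lower, where 12.9% of loci were higher and 11.6% lower. The 3 comparisons share their arrays in pairs and are not independent of each other.

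**Figure D2:**
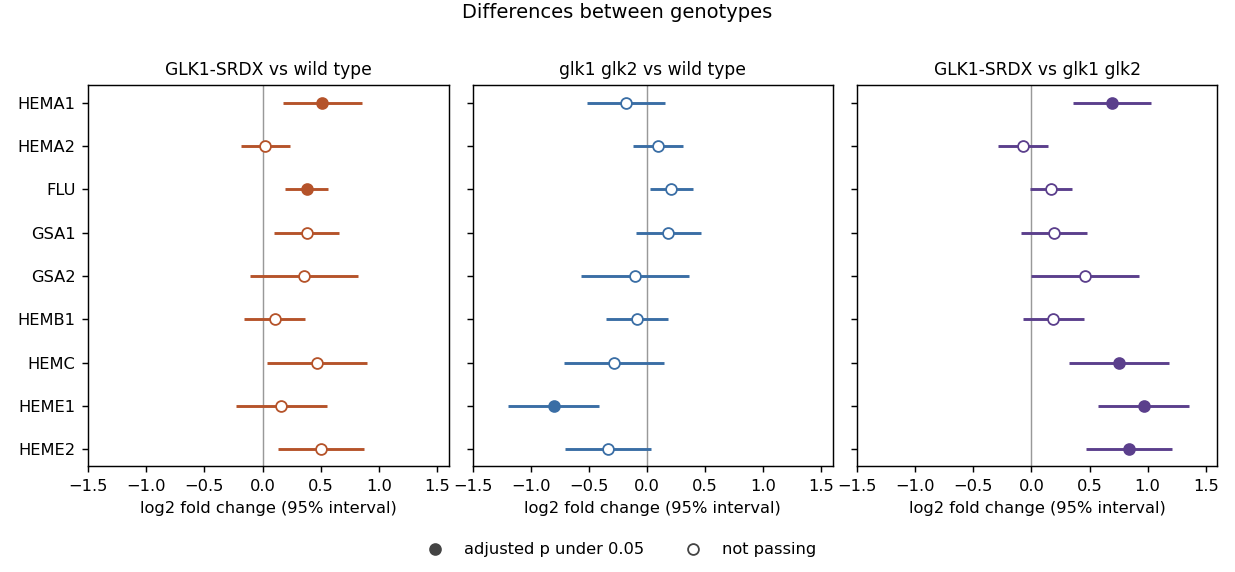
Log2 difference of each of the 9 genes with its 95% interval in the 3 comparisons, with filled points for adjusted p under 0.05. HEME1 stands apart to the left for glk1 glk2 against wild type at -0.80, and HEMA1, HEMC, HEME1 and HEME2 lie between 0.69 and 0.97 for GLK1-SRDX against glk1 glk2.

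Groups of 4 arrays did not overlap for 2 of the 9 genes in GLK1-SRDX against wild type, both higher, where 28% of loci did so in either direction. The same held for 1 of 9 in glk1 glk2 against wild type (9.84% of loci) and for 4 of 9 in GLK1-SRDX against glk1 glk2 (17.3% of loci). The pair without overlap in GLK1-SRDX against wild type was FLU and GSA1. HEMA1, the other gene called there, overlapped.

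For 3 of the enzymes both copies of a pair were measured, and the log2 difference between the copies on the same array cancels any constant by which an array is scaled. The balance of HEME1 to HEME2 differed from wild type by a log2 of -0.47 in glk1 glk2 (1.38-fold lower) and of -0.34 in GLK1-SRDX (1.27-fold lower). All 4 arrays of each lay below all 4 of wild type. Both gave p = 0.0286 in a two-sided exact permutation test, the smallest that 4 against 4 arrays allow, and 0.0857 after adjustment over 9 tests. In glk1 glk2 HEME1 was further below wild type than HEME2, and in GLK1-SRDX HEME2 was further above it than HEME1, without passing the adjustment.

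The balance of HEMA1 to HEMA2 was higher in GLK1-SRDX than in glk1 glk2 by a log2 of 0.77 (exact permutation p = 0.0286, adjusted 0.0857) and than in wild type by 0.49 (p = 0.0857, adjusted 0.129). It differed by -0.28 between glk1 glk2 and wild type (exact permutation p = 0.257, adjusted 0.289). The balance of GSA1 to GSA2 differed by 0.29 between glk1 glk2 and wild type (exact permutation p = 0.0857, adjusted 0.129), by -0.27 between GLK1-SRDX and glk1 glk2 (p = 0.0571, adjusted 0.129) and by 0.02 between GLK1-SRDX and wild type (p = 0.8). None of the 9 tests passed after adjustment, but the design largely fixed this, since at least 6 of the 9 would have had to reach the smallest possible p for any to pass. Whether a probe also binds its gene's paralog was not tested.

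**Figure D3:**
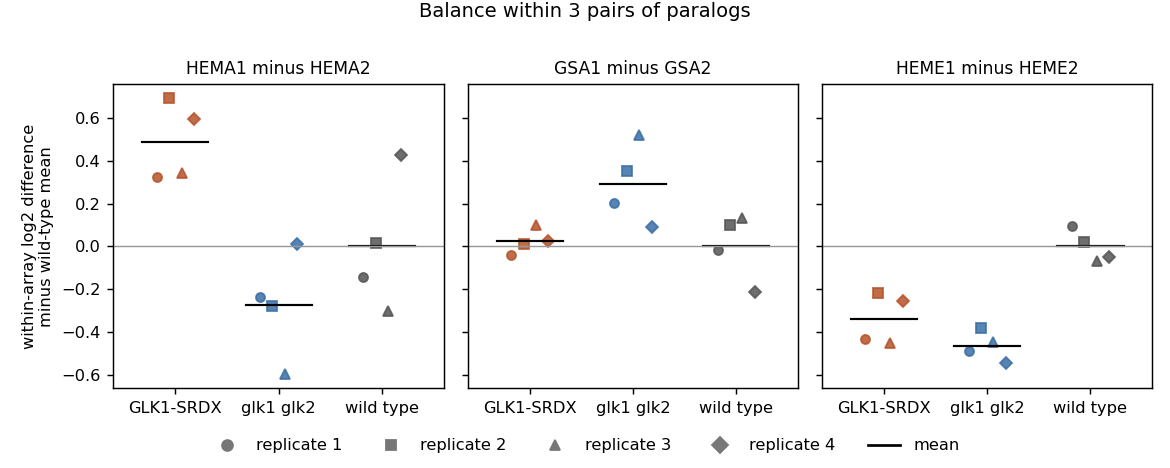
Log2 difference between the copies of 3 paralog pairs on each array, centred on the wild type mean, with GLK1-SRDX, glk1 glk2 and wild type from left to right, a symbol for each replicate and a bar at the mean of 4 arrays. For HEME1 minus HEME2, the 4 arrays of GLK1-SRDX and the 4 of glk1 glk2 all lie below the 4 of wild type.

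Single arrays stood low or high for many of the 9 genes at once. Replicate 3 of glk1 glk2 was the lowest of all 12 arrays for 7 of 9 genes. Replicate 3 of wild type was the lowest of its group for 8 of 9, and replicate 4 of wild type the highest of its group for 8 of 9. Marker levels differed with these arrays and with genotype. Over the 19 measured root markers, the median log2 level relative to the wild type mean ran from -1.70 to -0.96 in GLK1-SRDX, -2.07 to 0.15 in glk1 glk2, with replicate 3 at the top of that range, and -0.34 to 0.24 in wild type. Of these markers, 7 fell and none rose in GLK1-SRDX against wild type, where 6.4% of all loci fell and 7.89% rose. In glk1 glk2 against wild type none passed, where 1.1% of all loci fell. There 18 of the 19 had a negative log2 difference, with a median of -0.81. At an unadjusted p under 0.05, where 8.44% of all loci were lower, 9 of these markers were lower. Their summed level was 41.9 to 80.1 in GLK1-SRDX, 33.7 to 105 in glk1 glk2 and 58.1 to 84.5 in wild type.

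Over the 6 green shoot markers, the median log2 level ran from -0.22 to -0.06 in GLK1-SRDX, -0.48 to 0.33 in glk1 glk2, with replicate 3 the lowest, and -0.18 to 0.18 in wild type. Their summed level was 409 to 458 in GLK1-SRDX, 402 to 660 in glk1 glk2 and 428 to 544 in wild type. One of the 6, RBCS2B, a small subunit gene of Rubisco, fell in GLK1-SRDX against wild type (log2 change -0.80), where 6.4% of all loci fell. The part of root and shoot content in the levels of the 9 genes was not tested. In RNA of whole seedlings, fewer cells of a type and less RNA per cell cannot be told apart.

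Beyond the early route, the magnesium branch leads to chlorophyll. Of its 14 genes, 4 fell and none rose in glk1 glk2 against wild type, with a median log2 difference of -0.41. They were PORA (-5.09, adjusted p = 0.00102), PORB (-0.78, 0.0370), both protochlorophyllide oxidoreductases, GUN4, an activator of magnesium chelatase (-1.39, 0.0487), and CHLP, geranylgeranyl reductase (-0.69, 0.0432). In GLK1-SRDX against wild type, 2 of the 14 fell, namely PORA (-4.39, adjusted p = 0.000711) and CHLH, the large subunit of magnesium chelatase (-0.89, 0.0329), and none rose. CHLH lay almost as far below wild type in glk1 glk2 without passing there (-0.82, adjusted p = 0.0924). Between GLK1-SRDX and glk1 glk2 it differed by -0.07 (adjusted p = 0.898).

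Of the 14 measured genes for other porphyrin, haem, bilin and sirohaem steps, among them HEMD, which closes the ring between HEMC and HEME, none was called in glk1 glk2 against wild type. In GLK1-SRDX against wild type 3 rose: HEMF1 (0.36, adjusted p = 0.0431) and HEMF2 (0.57, 0.0211), named for coproporphyrinogen oxidase, which acts on the product of HEME1 and HEME2, and HEMG2, named for protoporphyrinogen oxidase (0.39, 0.0192). Of 6 genes for glutamyl-tRNA and the control of its reductase, 2 rose in GLK1-SRDX against wild type: OVA3, the organellar glutamyl-tRNA synthetase (0.46, 0.00921), and HEMA3, a further reductase gene (0.43, 0.0220). None passed in glk1 glk2, where OVA3 also lay above wild type (0.34, adjusted p = 0.0706) and HEMA3 below it (-0.31, adjusted p = 0.142). OVA3 differed by 0.12 between GLK1-SRDX and glk1 glk2 (adjusted p = 0.497). The medians in GLK1-SRDX against wild type were 0.21 for the magnesium branch, 0.15 for the other steps and 0.19 for the glutamyl-tRNA list.

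In GLK1-SRDX against glk1 glk2, 4 of 14 magnesium branch genes rose: PORB (1.01), CHLI2, a chelatase subunit (0.88), CAO, chlorophyllide oxygenase (1.29), and CHLP (0.70). HEMF2 (0.50) and HEMA3 (0.74) rose, and UPM1, the methyltransferase that opens the sirohaem branch, fell (-0.34, adjusted p = 0.0116). Summed over the 34 measured genes outside the early set, 6 rose and 1 fell, against 4 and none of the 9 early genes. Of all tested loci, 5.55% rose and 3.72% fell. In GLK1-SRDX against wild type, 5 of the 34 rose and 2 fell (7.89% and 6.4% of all loci). In glk1 glk2 against wild type, none of the 34 rose and 4 fell (2.19% and 1.1% of all loci).

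**Figure D4:**
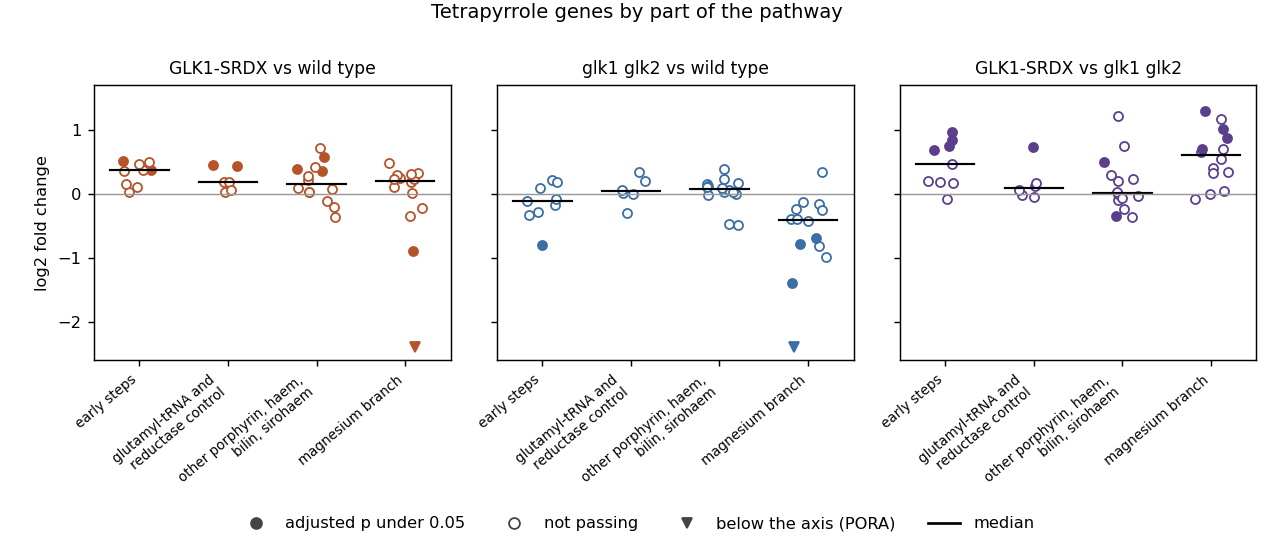
Log2 differences of the early genes and of the 3 further lists of tetrapyrrole genes in the 3 comparisons, a point for each gene, filled where the adjusted p was under 0.05, with a bar at each list's median. PORA lies below the axis against wild type, at -4.39 in GLK1-SRDX and -5.09 in glk1 glk2, and is drawn as a triangle at its lower edge, while the early genes all lie above 0 in GLK1-SRDX against wild type.

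Over the 12 arrays, the tested loci with a symbol whose levels ran most like those of HEMA1 were CPSRP54, ATERDJ2B and ECHID (Pearson r of 0.95 each). For HEMA2 they were SBP1 (0.94), PBS2 (0.92) and NPY3 (0.89), and for HEME1 they were UGT88A1 (0.97), TL29 (0.97) and BT3 (0.96). These correlations describe 12 arrays that share genotypes and slides, and they carry no test.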

How the data were processed

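The deposited scanner files hold spot intensity on a linear scale, with background already subtracted in the processed signal per the file headers, and were written by Agilent Feature Extraction (version 9.1.3.1, per the submitters' processing notes). The authors' series table equals that intensity divided by a constant per genotype (892 for GLK1-SRDX, 1077 for glk1 glk2 and 974 for wild type). It is linear and uncentred, where the constants came from is not stated, and its column medians ran from 0.0798 to 0.168.

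The processed intensity was divided by each array's 75th percentile and taken to log2. Control and marked spots (6 to 86 per array) were left out, a locus was kept if above background on at least 4 of 12 arrays with at least 3 unmarked spots per genotype, and the brightest probe stood for it. All 12 arrays were fitted with limma 3.58.1 in R 4.3.3 (lmFit, eBayes), with Benjamini-Hochberg adjustment over all 20640 loci and a threshold of 0.05. The number of arrays limits the precision. The members and lists were chosen with earlier results of these data known.

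Alternatives were median and quantile scaling, normexp background (on the median spot signal, since a mean was absent), other filters and probes, 2-group fits, blocks, the series table and leaving out arrays. The labels do not state which arrays belong together, and the main fit used no pairs. Same-numbered arrays of glk1 glk2 and wild type deviated together (correlations 0.319 to 0.757, each over 0.1), against -0.578 to 0.295 for unlike numbers. Their pairing was thus inferred from these same data. Deviations from a group mean sum to 0 over its 4 arrays, so positive values for like numbers push those for unlike numbers down. Same-numbered arrays of GLK1-SRDX gave mixed values (-0.20 to 0.26 with wild type and -0.096 to 0.577 with glk1 glk2). The replicate block still fitted them as pairs, and it counts among the 23 settings of the comparisons with GLK1-SRDX. All 9 early genes were named, and other genes where they passed. For likeness, the 3 loci of highest correlation were named. Names came from the files and RefSeq's TAIR10.1 gene table. No sequences were used here.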

Additional observations from a re-analysis of the deposited data

Results flagged for a closer look

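In glk1 glk2, replicate 4 of HEMA2, the more evenly expressed reductase gene, lay apart from the other 3 arrays, at a log2 level of 1.16 (2.24 multiples of the 75th percentile, against 2.56 to 2.62 on the others). Its gap to the nearest of them was 0.849 of the group's whole range, above Dixon's 95% critical value. It was the only such array among 27 groups of a gene and a genotype, and chance flags about 5% of groups.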

How the results depend on the processing

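Calls that passed were 1 of 9 genes in glk1 glk2 against wild type, 2 in GLK1-SRDX against wild type and 4 in GLK1-SRDX against glk1 glk2, and each of these 7 differences kept its sign in all 23 settings. Many of these settings could not move a difference: filters, probe averaging, 2-group fits, blocks and leaving out arrays of the third genotype. They change only the spread or the adjustment. The early genes lower in glk1 glk2 than in wild type numbered 0 with median scaling, normexp, no filter, 2-group fits, the slide as a block or the series table. Over all loci the lower numbered 228 in the main fit, 99 with normexp, 76 in 2-group fits, 46 with the slide block and 132 in the series table. Early genes higher in GLK1-SRDX than in wild type numbered 4 with median scaling, 1 with normexp or no filter and 0 with the series table. Over all loci the higher numbered 1628 in the main fit, 3763 with median scaling, 887 with normexp and 562 with the series table. Early genes higher in GLK1-SRDX than in glk1 glk2 numbered 2 with median scaling and 1 with normexp. There 746 and 339 of all loci were higher, against 1146 in the main fit. Among the 9 genes, leaving out single arrays gave 0 to 1 lower and 0 to 1 higher, 0 to 4 higher, and 2 to 4 higher in the same order of comparisons, with 0 without GLK1-SRDX replicate 2 and 4 without glk1 glk2 replicate 3 for GLK1-SRDX against wild type. Over all loci, these 2 omissions gave 872 and 2175 higher. The cause was not tested.

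Over all loci, glk1 glk2 against wild type gave 453 higher and 228 lower. The higher numbered 1779 with median scaling, 155 with normexp, 285 with no filter, 39 in 2-group fits, 950 with the replicate block, 18 with the slide as a block, 4 in the series table and 918 without both arrays numbered 3 (added after seeing the data). The lower numbered 99 with normexp, 76 in 2-group fits, 470 with the replicate block, 46 with the slide block, 132 in the series table and 787 without both arrays numbered 3. Single arrays left out gave 132 to 1388 higher and 119 to 1834 lower. GLK1-SRDX against wild type gave 1628 higher and 1320 lower, with 3763 higher for median scaling, 887 and 718 for normexp, 2338 lower in 2-group fits, 562 and 347 in the series table, and 872 to 2175 and 615 to 2245 without single arrays. GLK1-SRDX against glk1 glk2 gave 1146 higher and 767 lower, with 746 and 459 for median scaling, 339 and 259 for normexp, 437 and 278 with the replicate block, 476 lower in 2-group fits, 148 lower in the series table, 1254 lower without both arrays numbered 3, and 637 to 1467 and 359 to 1209 without single arrays. The higher share of calls was 66.5% in glk1 glk2 against wild type, 91.5% with median scaling (which moved the median of all loci to 0.20) and 2.94% in the series table (-0.19). It was 55.2% in GLK1-SRDX against wild type and 79.9% with median scaling (0.20), and 59.9% in GLK1-SRDX against glk1 glk2 and 90.5% in the series table (0.28).

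Signs turned only for differences that had not passed. In glk1 glk2 against wild type these were GSA1 in the series table (-0.0025), GSA2 with median scaling (0.088), on dropping both arrays numbered 3 (0.0080), replicate 4 of wild type (0.023) or replicate 3 of glk1 glk2 (0.095; range -0.27 to 0.095 without single arrays), HEMA1 with median scaling (0.013), HEMA2 in the series table (-0.091), and HEMB1 with median scaling (0.11) and on dropping replicate 3 of glk1 glk2 (0.028; range -0.16 to 0.028). HEMA2 turned for GLK1-SRDX against glk1 glk2 in the series table (0.22), and against wild type with quantile normalization (-0.010) and without replicate 4 of wild type (-0.041) or of GLK1-SRDX (-0.033; range -0.041 to 0.079). Of the paralog balances, HEME1 to HEME2 turned for GLK1-SRDX against glk1 glk2 with normexp (-0.15), and GSA1 to GSA2 for GLK1-SRDX against wild type without wild type replicate 4 (-0.046) or GLK1-SRDX replicate 3 (-0.0014), where leaving out single arrays gave -0.046 to 0.068. With the replicate block, HEMC in GLK1-SRDX against glk1 glk2 had an adjusted p of 0.0981, and no other call of the 9 genes changed. The replicate block fitted same-numbered GLK1-SRDX arrays as pairs, although their correlations with the other genotypes were mixed.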

Other observations

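Of the 8 regulators known to act on HEMA1 or tetrapyrrole genes, GLK1 and GLK2 fell in glk1 glk2 against wild type and rose in GLK1-SRDX against glk1 glk2, and none of the 8 passed in GLK1-SRDX against wild type. In that comparison GLK1 and GLK2 gave log2 differences of 0.84 (limma adjusted p = 0.0662) and 0.62 (adjusted p = 0.0538). HY5, an activator of light-induced genes, and PIF1, a repressor of greening in the dark, gave -0.05 (adjusted p = 0.817) and 0.45 (adjusted p = 0.0536). Of 5 epidermis and guard cell markers, KAT1, a guard cell potassium channel gene (log2 change -1.95, adjusted p = 0.00171), and MYB60, a guard cell transcription factor gene (-0.58, adjusted p = 0.0316), fell in GLK1-SRDX against wild type, and none rose. Of all loci, 6.4% fell and 7.89% rose there.

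Of the 18 loci next to the 9 early genes, 14 were measured. None passed in glk1 glk2 against wild type, where 3.3% of all loci did in either direction. In GLK1-SRDX against wild type, COX19-2 next to HEMB1 rose (0.28, adjusted p = 0.0406), and AT5G63580 (symbol FLS2) next to GSA1 (-0.82, adjusted p = 0.00874) and PPC3 next to HEME1 (-1.40, adjusted p = 0.00931) fell, while HEMB1, GSA1 and HEME1 themselves did not pass there. In that comparison 7.89% of all loci rose and 6.4% fell. HO4, a haem oxygenase gene beside HEMA1, was above background on 1 of 12 arrays and was not tested.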
